A study of Mus musculus with 1479 samples.

Results

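The genes described here are 8 members of one signalling axis: Ptch1, Hhip and Gli1, which are transcribed in cells that receive a hedgehog signal, Smo, Gli2 and Gli3, which carry that signal inside the cell, and the forkhead factors Foxf1 and Foxf2. They were taken by name, and all 8 were found among the 46517 gene rows of a read count table that covers 1479 single cells of mouse bladder. Each cell was sorted into a well, made into its own Smart-seq2 library, a full-length cDNA method without molecular identifiers, and given a cluster number from 1 to 11 by the authors. The question was whether the fibroblasts of cluster 5, which the study placed directly under the epithelium, differed in these genes from the other fibroblasts.

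All mice were adult males of 10 to 20 weeks on the C57Bl6/J background. C57BL6 mice carried no reporter (12.8% of the cells). In Acta2GFP (8.72%), Cspg4dsRED (13.7%) and PdgfrbGFP (54.8%) mice a transgene with the regulatory sequence of the named gene drives a fluorescent protein, and in PdgfraGFP mice (9.94%) a nuclear GFP sits in the Pdgfra gene. Cells were gated as CD31-negative and positive for a reporter or for an antibody to PDGFRα or PDGFRβ, and elastase was added when Acta2GFP tissue was dissociated. The labels name no animal, so the mouse line stood in for the animal, and line, sorting gate and, for some lines, plate cannot be told apart. Cluster 5 held 76 cells, of which 36 came from PdgfrbGFP, 22 from PdgfraGFP, 15 from C57BL6, 3 from Cspg4dsRED and 0 from Acta2GFP. Cluster 10, the vascular mural cells, held 8.45% of the cells and the other 9 fibroblast clusters 1278 cells.

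Total reads per cell ranged from 50276 to 1446059, with a median of 261652 in cluster 5, 222512 in the other fibroblast clusters and 130406 in cluster 10. Levels are given as normalised reads, which means reads scaled to 500000 endogenous reads in each cell. They were averaged within each line that had at least 3 cells, and means with SD are over lines. Cluster 5 carried the markers that define sub-epithelial fibroblasts. Tnc, an extracellular matrix glycoprotein, averaged 605 normalised reads in cluster 5 and 0.862 in the other fibroblast clusters, and Cd34, a surface marker of deeper fibroblasts, averaged 89.5 and 1107. The summed level of 6 mural markers ran from 358.1 to 653 normalised reads over the lines of cluster 5 and from 36.1 to 109.8 over those of the other fibroblast clusters. Acta2 was at 412 against 57.3, Myh11 at 35.3 against 2.36 and Cspg4 at 60.3 (0.136 to 233.9 over the lines) against 10.5, while Mcam, Notch3 and Rgs5 were at 0.434, 0.743 and 0.559 in cluster 5. The part of these genes in the results was not tested. The summed level of 10 urothelial markers ran from 0 to 138.7 over the lines of cluster 5 and from 1.26 to 78.7 over those of the other fibroblast clusters, and its part in the results was not tested.

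In the hedgehog pathway a secreted ligand binds the receptor Ptch1, which then no longer holds back the membrane protein Smo, and Smo signalling turns the Gli factors into activators of transcription. Ptch1, Hhip and Gli1 are direct targets of this step in most responding tissues, so their transcripts serve as a readout, and since Ptch1 and Hhip bind the ligand they also limit its range. In the bladder the basal urothelium is known as a source of the ligand Shh and the stroma beneath it as the responding tissue, while Foxf1 and Foxf2 are factors of the mesenchyme that lines epithelial organs and depend on hedgehog signals in the developing gut.

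The sequences just before the start sites of Hhip, Ptch1 and Foxf2 are shown, since Hhip and Ptch1 had the most reads of the 8 in cluster 5, without correction for gene length, and Foxf2 was read in the smallest share of the other fibroblasts. They are the 250 bases upstream of the RefSeq start sites in build GRCm38.p6, written 5′ to 3′ on the strand of the gene, with each CpG in capitals. Hhip lies on the minus strand (chr8:80058009-80058258), Ptch1 on the minus strand (chr13:63565736-63565985) and Foxf2 on the plus strand (chr13:31625566-31625815), and the Ptch1 start used by RefSeq lies within the longer GENCODE gene.
Hhip: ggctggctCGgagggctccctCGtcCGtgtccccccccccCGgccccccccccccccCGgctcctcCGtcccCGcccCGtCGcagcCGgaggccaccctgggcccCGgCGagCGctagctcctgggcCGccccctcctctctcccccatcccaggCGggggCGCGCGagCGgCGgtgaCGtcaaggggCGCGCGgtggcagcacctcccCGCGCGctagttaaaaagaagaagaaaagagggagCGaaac
Ptch1: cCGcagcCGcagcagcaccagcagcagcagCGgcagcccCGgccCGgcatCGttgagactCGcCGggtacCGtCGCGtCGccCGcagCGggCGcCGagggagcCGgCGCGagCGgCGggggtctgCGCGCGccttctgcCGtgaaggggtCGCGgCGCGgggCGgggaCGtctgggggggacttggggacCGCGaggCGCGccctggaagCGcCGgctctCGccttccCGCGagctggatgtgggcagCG
Foxf2: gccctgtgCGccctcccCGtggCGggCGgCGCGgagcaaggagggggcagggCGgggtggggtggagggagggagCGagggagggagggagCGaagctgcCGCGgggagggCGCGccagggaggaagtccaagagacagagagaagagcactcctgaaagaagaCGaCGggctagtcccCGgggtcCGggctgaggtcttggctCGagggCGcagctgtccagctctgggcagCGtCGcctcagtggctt
Of the 8 genes, 6 had an entry in the promoter table, and Gli1 and Foxf1 were not among them. CpG counts in these windows were 41 for Ptch1, 34 for Gli3, 28 for Hhip, 22 for Gli2, 21 for Foxf2 and 15 for Smo, against a median of 6 over 32851 RefSeq promoters. The Gli consensus GACCACCCA was found on either strand in 0 of the 6 windows and in 0.225% of all promoters, and its shorter form CCACCCA, which the consensus contains, in 0 of 6 and in 8.11%. The absence of these letters in a 250 base window says nothing of sites elsewhere.

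Hhip, a membrane-anchored protein that binds and sequesters hedgehog ligands, showed the largest difference. In cluster 5 its level was 427 normalised reads in PdgfraGFP, 386 in PdgfrbGFP, 305.2 in C57BL6 and 32.1 in Cspg4dsRED cells, a mean of 287.4 ± 177.5 (SD, n = 4 lines). The PdgfraGFP value was 285.6 without its highest cell, which held 3389. In the other fibroblast clusters it was 14.9 in PdgfrbGFP, 10.7 in C57BL6, 4.63 in Acta2GFP, 3.46 in PdgfraGFP and 1.07 in Cspg4dsRED cells. Every line was thus higher in cluster 5, the ranges did not overlap, and the lowest line in cluster 5 was the one with 3 cells.

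Ptch1 is the hedgehog receptor. Its level in cluster 5 was 305.5 normalised reads in PdgfrbGFP, 297.2 in C57BL6, 294.998 in PdgfraGFP and 61.3 in Cspg4dsRED cells, a mean of 239.8 ± 119.03 (SD, n = 4 lines). In the other fibroblast clusters PdgfraGFP cells reached 123.8, while the other lines lay between 49.4 and 58.2. Ptch1 was higher in cluster 5 in 4 of 4 lines, but the ranges overlapped through Cspg4dsRED in cluster 5 and PdgfraGFP in the other clusters.

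Gli1, a transcriptional activator and the third common readout of the pathway, did not follow Hhip and Ptch1. Cluster 5 held 84.3 normalised reads in C57BL6, 38.5 in PdgfrbGFP, 5.59 in PdgfraGFP and 0 in Cspg4dsRED cells. Outside cluster 5, Cspg4dsRED fibroblasts had 46.1, PdgfraGFP 39.2, PdgfrbGFP 34.3, Acta2GFP 17.3 and C57BL6 13.2. Gli1 was thus higher in cluster 5 in 2 of 4 lines and lower in the other 2, with means of 32.1 ± 38.7 (SD, n = 4 lines) and 30.03 ± 14.2 (SD, n = 5 lines).

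Both Foxf factors, which act in mesenchyme next to epithelia, were higher in cluster 5 in every line. Foxf1 was at 190 normalised reads in Cspg4dsRED, 133.004 in PdgfrbGFP, 122.6 in C57BL6 and 56.9 in PdgfraGFP cells of cluster 5, and between 10.5 and 34.2 in the 5 lines of the other fibroblast clusters. Foxf2 was at 82.3 in Cspg4dsRED, 63.7 in PdgfraGFP, 55.7 in PdgfrbGFP and 24.3 in C57BL6 cells of cluster 5. In the other fibroblast clusters Foxf2 was at 0 in Cspg4dsRED, 0.0144 in Acta2GFP, 3.09 in PdgfraGFP, 5.02 in PdgfrbGFP and 10.8 in C57BL6 cells, so neither factor overlapped between the classes. The Foxf2 value of Cspg4dsRED cells in cluster 5 came from 1 of 3 cells.

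The values of Smo, Gli2 and Gli3 lay closer together. Smo, the membrane protein that relays the signal, ran from 47.4 to 69.4 normalised reads over the lines of cluster 5 and from 31.5 to 38.8 over those of the other fibroblast clusters, without overlap, although its order was reversed on 1 plate, bladder_881s (28.6 against 35.9). Gli2, the main activating Gli factor, ran from 37.99 to 118.7 in cluster 5 and from 35.4 to 74.05 in the other fibroblast clusters. It was higher in cluster 5 in 2 of 4 lines and lower in the other 2. Gli3, which acts mostly as a repressor without ligand, ran from 0 to 22.1 in cluster 5 and from 9.93 to 39.1 in the other fibroblast clusters, and was lower in cluster 5 in 3 of 4 lines. The ranges of Gli2 and Gli3 overlapped.

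**Figure D1:**
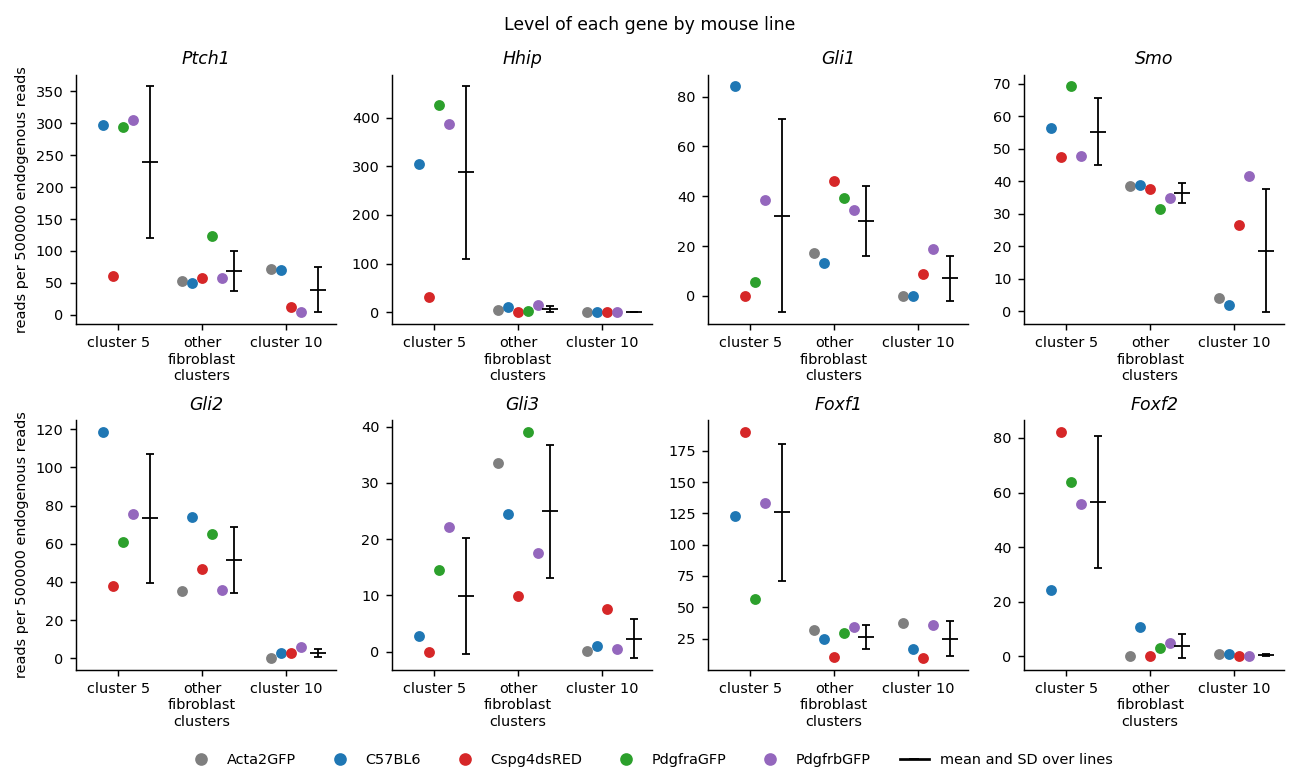
Level of the 8 genes (reads per 500000 endogenous reads, linear axes) in cluster 5, the other fibroblast clusters and cluster 10, with 1 point for each mouse line with at least 3 cells and the mean with SD over lines in black. The line means of Hhip, Foxf1, Foxf2 and Smo in cluster 5 lie above those of the other fibroblast clusters, although Smo was lower in cluster 5 on plate bladder_881s (28.6 against 35.9), and the Cspg4dsRED point of Ptch1 (61.3) lies far below the other lines of cluster 5.

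Per kilobase of exon, which allows genes to be compared, the levels in cluster 5 were 52.1 normalised reads per kb for Foxf1, 31.7 for Hhip, 23.9 for Foxf2, 16.9 for Ptch1, 10.7 for Gli2, 9.83 for Smo, 6.43 for Gli1 and 1.02 for Gli3. Among the other fibroblasts Foxf1 was again the most abundant per kb at 10.9, followed by Gli2 at 7.49, while Hhip at 0.765 was the least abundant of the 8. Hhip was thus last of the 8 genes in the other fibroblasts and second in cluster 5.

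Cluster 5 was tested against the other fibroblast clusters on counts summed per line, with edgeR's quasi-likelihood test and the line as a block, over the 4 lines with cells in both classes. Calls needed a log2 fold change of 2 or more in either direction and an adjusted p (Benjamini-Hochberg) below 0.05. The cluster numbers come from these same expression values, so this test says only how far a difference repeats from line to line. All 8 genes passed the filter on low counts, and 1 of them, Hhip, was called, against 0.879% of 13988 tested genes. The log2 fold change of Hhip was 5.14 ± 0.66 (SE), with an adjusted p of 0.00373. Line values that did not overlap, with cluster 5 higher, were found for 4 of the 8 genes, Hhip, Foxf1, Foxf2 and Smo, and for 2.17% of the tested genes. The reverse, with cluster 5 lower, was found for 0 of the 8 genes and for 8.69% of the tested genes.

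The other 7 genes did not pass. The log2 fold change of Ptch1 was 1.84 ± 0.48 (SE) with an edgeR adjusted p = 0.135, that of Foxf1 2.15 ± 0.60 (adjusted p = 0.141) and that of Foxf2 4.55 ± 1.63 (adjusted p = 0.289). Smo was at 0.47 ± 0.65, Gli2 at 0.45 ± 0.54, Gli1 at -0.77 ± 1.56 and Gli3 at -1.77 ± 1.33, with edgeR adjusted p between 0.773 and 0.928. The sign of Gli1 was not stable, with 0.25 without the line as a block, 0.10 with sums per plate and line and 0.49 without the Cspg4dsRED line. The median gene of this comparison was at -0.69, so that relative to it Ptch1 stood at 2.53, Foxf1 at 2.85, Hhip at 5.83 and Gli1 at -0.07, or at 0.38, 0.61 and 0.78 in the same 3 alternatives. The median log2 fold change of the 8 genes was 1.16.

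The calls on Ptch1, Foxf1 and Foxf2 depended on the fit. With the median gene set to 0, which changed all calls from 48 higher and 75 lower to 97 higher and 44 lower, Ptch1 (adjusted p = 0.0270) and Foxf1 (adjusted p = 0.0422) were called beside Hhip, where 1.01% of all tested genes were called. With sums per plate and line Ptch1 (adjusted p = 0.000428) and Foxf2 (adjusted p = 0.00651) were called, while Foxf1 had an adjusted p of 0.00455 at a log2 fold change of 1.95, under the limit, and 4.52% of all tested genes were called. DESeq2, with 9.64% of all tested genes called, called Foxf1 (adjusted p = 0.0330) and Foxf2 (adjusted p = 0.00431) and gave Ptch1 an adjusted p of 0.0730. Without the Cspg4dsRED line, in both classes, Ptch1 was called at 2.30 ± 0.33 (SE, edgeR adjusted p = 0.0315), against 1.33% of all tested genes, and Hhip stayed called at 5.60.

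**Figure D2:**
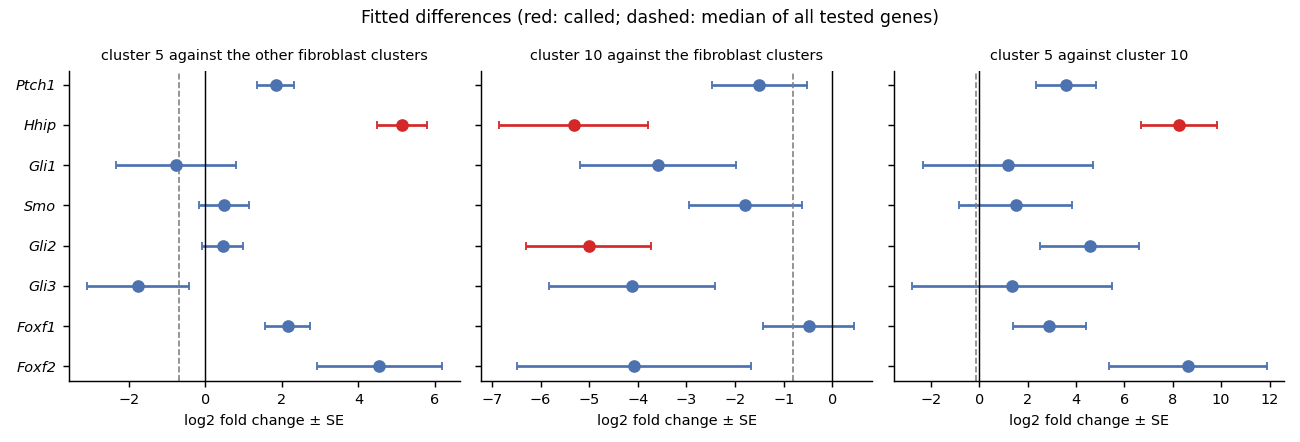
Fitted log2 fold change with SE of the 8 genes in 3 comparisons of counts summed per line (edgeR), with called genes in red, 0 as a solid line and the median of all tested genes as a dashed line. In cluster 5 against the other fibroblast clusters only Hhip, at 5.14, is called, and 6 of the 8 genes lie above the median gene at -0.69.

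The difference in Hhip was present on each plate that could be compared. On the 5 combinations of plate and line with at least 3 cluster 5 cells, Hhip was at 168.9 normalised reads in cluster 5 and 13.6 in the other fibroblasts on bladder_074s, at 305.2 and 10.7 on bladder_443s, at 575 and 16.6 on bladder_515s, at 427 and 3.46 on bladder_689s, and at 409 and 15.9 on bladder_881s. Ptch1 was also higher in cluster 5 on each of them, with 240.1 against 42.6 on bladder_074s and 294.998 against 123.8 on bladder_689s. Foxf1 and Foxf2 were higher in cluster 5 on all 5 combinations. Smo was lower in cluster 5 on bladder_881s, where 24 cells of cluster 5 lay, at 28.6 against 35.9, and higher on the other plates, with 98.1 against 35.1 on bladder_074s. For Gli1 the order changed between plates, with 84.3 against 13.2 on bladder_443s and 5.59 against 39.2 on bladder_689s.

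Over the 11 clusters, cluster 5 ranked first by mean level for Ptch1, Hhip, Foxf1 and Foxf2, and the order of the others differed by gene. After the 287.4 normalised reads of cluster 5, Hhip was next highest at 22.01 ± 19.6 (SD, n = 4 lines) in cluster 1 and 17.9 ± 19.01 (SD, n = 5 lines) in cluster 2. Ptch1 was followed by cluster 3 at 115.7 ± 82.4 (SD, n = 4 lines) and cluster 2 at 102.7 ± 83.6 (SD, n = 5 lines). Foxf1 was followed by cluster 1 at 85.7 ± 69.2 (SD, n = 4 lines), and Foxf2 by cluster 9, where 1 cell of C57BL6 carried the value, and by cluster 7 at 12.5 ± 14.9 (SD, n = 5 lines). For every gene the line ranges of neighbouring clusters in this order overlapped, which includes Hhip through the Cspg4dsRED cells of cluster 5.

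The first place of the remaining genes lay elsewhere. Gli1 was highest in cluster 4 at 60.2 ± 2.42 (SD, n = 2 lines), followed by cluster 3 at 40.3 ± 26.5 (SD, n = 4 lines) and cluster 5. The first place of Gli1 rested on few cells. The 17 Cspg4dsRED cells of cluster 4 averaged 61.9, or 25.5 without the highest, which held 644.4. The 4 PdgfrbGFP cells averaged 58.5, or 38.9 without their highest cell. Smo was highest in cluster 11 at 90.5 ± 57.1 (SD, n = 3 lines), Gli2 in cluster 9 at 85.9 ± 53.3 (SD, n = 2 lines) and Gli3 in cluster 8 at 50.7 ± 49.7 (SD, n = 5 lines). For Smo the C57BL6 line of cluster 11 averaged 147.97 over 3 cells, 1 of which held 425.3. Without C57BL6 the Smo mean of cluster 11 was 61.7, against 55.2 in cluster 5 over all its lines. The first place of Gli3 rested on 1 PdgfraGFP cell with 2363 normalised reads, where the mean of the 19 PdgfraGFP cells was 137.5, or 13.9 without that cell. Without PdgfraGFP the mean of cluster 8 was 28.96 against 29.06 in cluster 11. The first place of Gli2 rested on 3 C57BL6 cells of cluster 9, 1 of them with a read after thinning. Without C57BL6 the Gli2 mean of cluster 9 was 48.2, against 73.8 in cluster 2 and 73.3 in cluster 5 over all their lines. The cluster 2 mean itself drew on 4 Cspg4dsRED cells, which averaged 225.9, or 73.9 without the highest, which held 681.8. Which cluster came first for Gli2 thus depended on few cells. Cluster 10 was last for Gli1, Gli2, Gli3 and Smo.

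**Figure D3:**
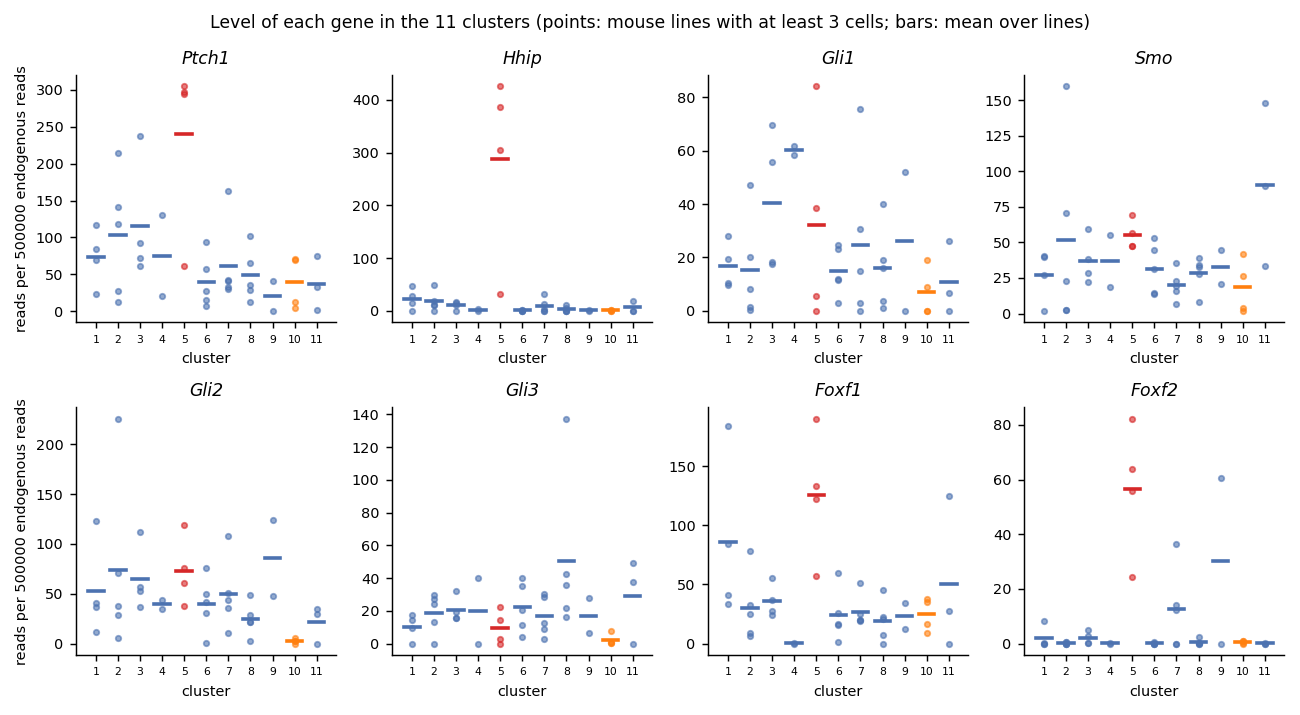
Level of the 8 genes (reads per 500000 endogenous reads, linear axes) in the 11 clusters, with points for mouse lines with at least 3 cells and bars for the mean over lines, cluster 5 in red and cluster 10 in orange. The mean of Hhip is highest in cluster 5 at 287.4, although its lowest line there (32.1) lies within the range of clusters 1 and 2, whereas Gli1, Gli2, Gli3 and Smo spread over the clusters.

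Set against single clusters, a choice made after the data were seen, the excess of Hhip held its direction in each of 6. The log2 fold change of cluster 5 was 9.48 against cluster 6, 9.14 against cluster 8, 6.94 against cluster 7, 4.85 against cluster 3, 4.44 against cluster 1 and 4.21 against cluster 2. The share of all tested genes called was 0.896% against cluster 1, 1.17% against cluster 2, 1.47% against cluster 3, 0.497% against cluster 6, 0.244% against cluster 7 and 0.708% against cluster 8. Hhip was called against clusters 2, 3, 6 and 8, and not against cluster 1 (edgeR adjusted p = 0.104) or cluster 7 (edgeR adjusted p = 0.0809). Ptch1 was called against cluster 1 (log2 fold change 2.74, adjusted p = 0.0487) and Foxf2 against cluster 2 (7.62, adjusted p = 0.0409).

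Within the remaining fibroblasts, 1 edgeR test over clusters 1 to 4, 6 to 9 and 11 asked whether any of them differed. Of the 8 genes, Foxf2 alone was called (adjusted p = 0.0276), where 2.54% of 14776 genes were called at an adjusted p under 0.05. Foxf2 was at 36.3 normalised reads in C57BL6, 13.9 in PdgfrbGFP, 12.1 in PdgfraGFP and 0 in Acta2GFP and Cspg4dsRED cells of cluster 7, and at 0.711 or less in every line of clusters 2, 4, 6 and 11. Hhip had an adjusted p of 0.250 and the other 6 genes lay between 0.505 and 1. The call on Foxf2 was lost without Acta2GFP (adjusted p = 0.100), without C57BL6 (0.393), without PdgfraGFP (0.192) and without PdgfrbGFP (0.280). It was also lost with DESeq2 (adjusted p = 0.14), without the filter on low counts (edgeR, 0.0635) and with thinned cells (edgeR, 0.109).

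The share of cells with a read was compared after every cell had been thinned to 50000 reads, which left out 6 cells of the other fibroblast clusters. Hhip was read in 60 of 76 cells of cluster 5, or 78.9% (exact 95% interval 68.1% to 87.5%), and in 13.99% (12.1% to 16.02%) of 1272 cells of the other fibroblast clusters. Without thinning the shares were 84.2% and 32%. Ptch1 was read in 88.2% (78.7% to 94.4%) and 48.7% (45.9% to 51.5%), Foxf1 in 68.4% (56.8% to 78.6%) and 36.8% (34.1% to 39.5%), and Foxf2 in 51.3% (39.6% to 62.96%) and 6.37% (5.09% to 7.85%) of the cells.

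The shares of the other members lay closer together. The shares of Gli2 were 55.3% (43.4% to 66.7%) in cluster 5 and 40.3% (37.5% to 43.01%) in the other fibroblasts, with intervals that just did not overlap. These shares pool the lines, and the mean level of Gli2 was higher in cluster 5 in only 2 of 4 lines. For Gli1 the shares were 35.5% (24.9% to 47.3%) and 32% (29.4% to 34.6%), for Smo 38.2% (27.3% to 50.02%) and 35.2% (32.6% to 37.9%), and for Gli3 19.7% (11.5% to 30.5%) and 26.7% (24.3% to 29.3%). Gli3 was the only one of the 8 with a lower share in cluster 5, and the intervals of Gli1, Smo and Gli3 overlapped. These intervals cover counting error only, since reads and the cells of a line are not independent.

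**Figure D4:**
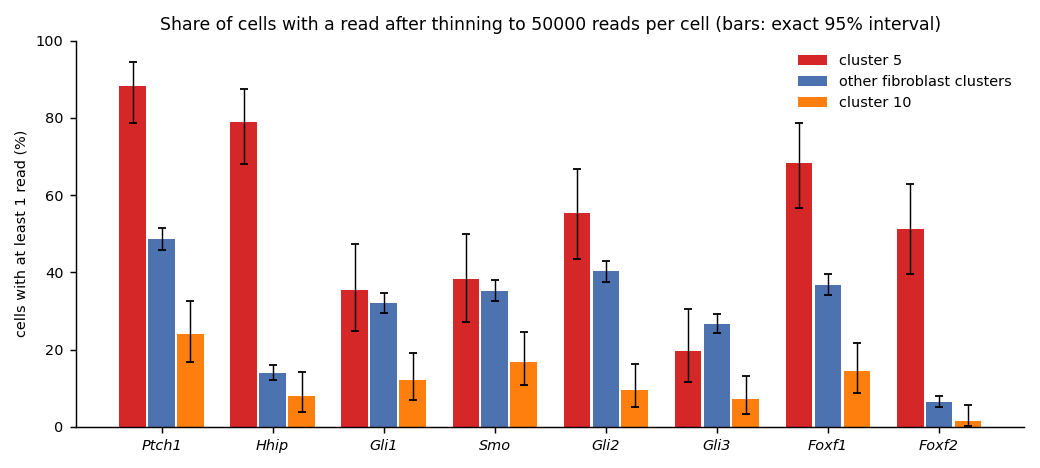
Share of cells with at least 1 read of each gene after thinning to 50000 reads per cell, with exact 95% intervals, in 76 cells of cluster 5, 1272 cells of the other fibroblast clusters and all cells of cluster 10. The bars of Ptch1, Hhip, Foxf1, Foxf2 and Gli2 in cluster 5 lie above those of the other fibroblasts with intervals that do not overlap, and cluster 10 has the lowest bar for each gene. The cells are pooled over lines, and the mean level of Gli2 was higher in cluster 5 in only 2 of 4 lines.

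Reads of Hhip in other fibroblasts went with the position in the plate. Before thinning, Hhip was read in 18.99% (exact 95% interval 15.6% to 22.7%) of the 495 fibroblasts whose plate row and column held no cell of cluster 5, and in 40.2% (36.8% to 43.8%) of the 783 fibroblasts that shared a row or column with one. The median depth of these cells was 172400 and 256600 endogenous reads. For Tnc, a gene of cluster 5, the shares were 1.01% and 39.3%, while the mean Tnc level was 0.0697 and 1.69 normalised reads. On bladder_881s the Hhip shares were 39.1% and 82.1%, and on bladder_074s 36.1% and 46.8%. The mean Hhip level was 9.73 normalised reads in the first and 11.5 in the second set of fibroblasts, pooled over plates. Within plates it was 13.3 and 13.9 on bladder_074s, 12.3 and 9.71 on bladder_515s, 5.03 and 17.2 on bladder_881s, and 0.162 and 12.03 on bladder_443s, where the first set held 20 cells. The part of reads from neighbouring wells in the low Hhip values outside cluster 5 was not tested.

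Foxf2 shares by position were 10.1% (7.59% to 13.1%) and 19.4% (16.7% to 22.4%), Ptch1 shares 66.3% (61.9% to 70.4%) and 71.3% (67.95% to 74.4%), and Gli2 shares 52.5% (48.02% to 57%) and 65.1% (61.7% to 68.5%). These pooled shares mix plates of different depth. Within plates, the Ptch1 share was lower beside a cell of cluster 5 on bladder_074s (87.4% without and 80.1% with), bladder_515s (58.7% and 50%) and bladder_881s (all 23 cells and 96.9%), and higher on bladder_443s (50% and 67.1%) and bladder_352s (30.5% and 34.1%). The Foxf2 share was 18.6% and 27.5% on bladder_074s, 30.4% and 40% on bladder_881s, and 20% and 12.5% on bladder_443s. For Gli2 the shares were 70.5% and 73.1% on bladder_074s, 91.3% and 91.8% on bladder_881s, 40.2% and 42.2% on bladder_515s, 30.5% and 34.1% on bladder_352s, and 55% and 69.7% on bladder_443s, so the gap differed between plates. On bladder_689s only 3 cells lay apart from cluster 5 cells. The pooled intervals of Gli1, at 51.7% and 50.7%, overlapped. The highest count of any of the 8 genes in a cell was 1111 reads of Hhip, or 0.122 reads per exon base, and the highest value per base was 0.162 for Foxf1.

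The 3 target genes were read together in a larger share of cluster 5 cells. Hhip and Ptch1 were each read in a larger share of these cells, so the joint share would be larger even with independent reads. Whether the 3 were read together more often than their single shares give was not tested. Gli1, Ptch1 and Hhip were all read in 22 of 76 thinned cells of cluster 5, or 28.9% (exact 95% interval 19.1% to 40.5%), in 46 of 1272 cells of the other fibroblast clusters, or 3.62% (2.66% to 4.79%), and in 1 cell of cluster 10, or 0.8%. Exactly 2 of the 3 were read in 39 of the 76 cells. None of the 3 was read in 6.58% (2.17% to 14.7%) of cluster 5 cells and in 33.9% (31.3% to 36.6%) of the other fibroblasts.

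Within cluster 5, cells with and without a Gli1 read were set side by side. The cells were pooled over mouse lines, which differ in their levels of these genes, and the part of the line was not tested. Foxf1 was read in 24 of 27 cells with a Gli1 read, or 88.9% (exact 95% interval 70.8% to 97.7%), and in 28 of 49 cells without, or 57.1% (42.2% to 71.2%), intervals that just overlap. Hhip was read in 85.2% and 75.5% of these cells and Ptch1 in 96.3% and 83.7%, with intervals that overlap further. In the other fibroblast clusters Ptch1 was read in 58.5% (53.5% to 63.3%) of cells with a Gli1 read and 44.1% (40.7% to 47.4%) of cells without, and Foxf1 in 45.2% (40.3% to 50.2%) and 32.8% (29.7% to 36.1%). Foxf2 was read in 62.96% and 44.9% of the cluster 5 cells with and without Gli1, and in 5.90% and 6.59% of the other fibroblasts.

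Cluster 10 was set against all fibroblast clusters over 4 lines, to see how these genes differ between mural cells and fibroblasts. Of the 8 genes 2 were called, both lower, against 8.34% of 13861 tested genes, with 27.3% of all calls higher and 72.7% lower, or 57.3% and 42.7% with the median gene at 0. Hhip was at 0 normalised reads in Acta2GFP, 0.0277 in Cspg4dsRED, 1.00 in C57BL6 and 1.28 in PdgfrbGFP cells of cluster 10, and its log2 fold change was -5.32 ± 1.53 with an edgeR adjusted p = 0.0386. Hhip ran from 1.74 to 34.3 in the fibroblast clusters of these lines, above every line of cluster 10. Gli2 was at 0, 2.601, 2.75 and 5.71 in the same lines and between 35.4 and 77.6 in the fibroblast clusters of these lines, at -5.01 ± 1.29 (SE, edgeR adjusted p = 0.0229). Hhip, Gli2 and Gli3 did not overlap between the classes, each lower in cluster 10, a pattern found for 16.2% of the tested genes, and 0 of the 8 genes were higher without overlap, against 4.97%.

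In cluster 10 the mean levels of Foxf1 and Ptch1 came from few cells. The median over cells was 0 for both, the 90th percentile was 8.91 and 9.19 normalised reads, and 8.8% and 5.6% of thinned cells had at least 3 reads. Foxf1 ran from 9.27 to 37.4 normalised reads over the lines of cluster 10 and from 14.4 to 38.9 in the fibroblast clusters, and Ptch1 from 4.23 to 71.4 and from 53.4 to 69.2. After thinning, the highest Ptch1 value rested on 5 of 12 Acta2GFP cells with a read and the next, 69.8, on 2 of 3 C57BL6 cells, while the highest Foxf1 value rested on 3 of the 12 Acta2GFP cells. Their log2 fold changes were -0.49 ± 0.94 (SE, edgeR adjusted p = 0.853) and -1.50 ± 0.98 (SE, edgeR adjusted p = 0.457). The calls on Hhip and Gli2 were lost with the median gene at 0 (adjusted p = 0.0884 for Hhip and 0.0654 for Gli2), without Acta2GFP (0.132 and 0.0942), without Cspg4dsRED (0.182 and 0.113) and without PdgfrbGFP (0.183 and 0.0534), and Hhip was lost when cluster 5 was taken out of the fibroblasts (0.0978) or C57BL6 was left out (0.0694).

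Cluster 5 and cluster 10 were also compared directly, in the 3 lines with at least 3 cells of both. Hhip was the 1 gene of the 8 that was called, against 2.22% of 11701 tested genes, with a fitted difference of 8.26 ± 1.56 on the log2 scale (edgeR adjusted p = 1.54e-05). Foxf2 was at 8.63 ± 3.25 (adjusted p = 0.230), Gli2 at 4.57 ± 2.05 (adjusted p = 0.521) and Ptch1 at 3.58 ± 1.25 (adjusted p = 0.139). The line values of Hhip, Gli2, Smo, Foxf1 and Foxf2 did not overlap, with cluster 5 higher, as was the case for 8.85% of the tested genes. None of the 8 was lower without overlap, against 7.76%. The call on Hhip was lost without PdgfrbGFP (edgeR adjusted p = 0.190), which left 2 lines with 3 cells in 1 of their classes.

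The other genes of the pathway were taken from lists by role. The ligands Shh, Ihh and Dhh were each read in under 5% of the cells of cluster 5 and of the other fibroblast clusters, and their summed level was 0.0843 and 1.35 normalised reads. The second value rested on Dhh in Cspg4dsRED (6.33 normalised reads, from 5 cells) and was 0.0812 without that line, and the first was 0.0134 without C57BL6. None of the 3 passed the filter on low counts. Of 5 genes for processing and release of ligands, 5 were tested and 0 called, which with 0.879% of all tested genes called is no result about the list. Their median log2 fold change was -2.29 against -0.69 for all tested genes, and 1 of the 5 lay above the median gene. Scube1 was at 18.5 normalised reads in cluster 5 and 79.4 in the other fibroblasts (log2 fold change -2.29 ± 1.06 SE, edgeR adjusted p = 0.4995). The gene above the median was Scube3, which helps to release the ligand, at 18.4 normalised reads in cluster 5 and 1.40 in the other fibroblasts (log2 fold change 6.08 ± 2.51 SE, edgeR adjusted p = 0.405). In PdgfraGFP cells the order of Scube3 was reversed, at 0.447 in cluster 5 and 5.93 in the others, while the remaining compared lines were higher in cluster 5.

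Of 6 receptors and co-receptors outside the 8 genes 5 were tested, 2 were called lower and 0 higher, where 0.536% of all tested genes were called lower and 0.343% higher, and their median log2 fold change was -4.30 against -0.69 for all tested genes. Gas1, a membrane-anchored co-receptor that promotes signalling together with Ptch1, was at 7.21 normalised reads in Cspg4dsRED, 30.2 in C57BL6, 32.6 in PdgfrbGFP and 48.4 in PdgfraGFP cells of cluster 5. In the other fibroblast clusters Gas1 was at 347 in PdgfrbGFP, 368 in C57BL6, 410 in Acta2GFP, 547 in PdgfraGFP and 629 in Cspg4dsRED cells, so no line of cluster 5 came near them. The log2 fold change of Gas1 was -4.30 ± 0.59 with an edgeR adjusted p = 0.00567.

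Gpc3, a glypican that competes with Ptch1 for the ligand, was the other called gene. It was at 1.47 normalised reads in PdgfraGFP, 7.57 in C57BL6, 12.7 in PdgfrbGFP and 65.2 in Cspg4dsRED cells of cluster 5, where the last value came from 1 of 3 cells, and at 109.9 to 210.7 in the lines of the other fibroblast clusters. The log2 fold change of Gpc3 was -4.32 ± 0.74 with an edgeR adjusted p = 0.0206. Boc and Cdon, related co-receptors, and the further pathway genes given with values here (Scube1, Scube3, Tbx2, Tbx3, Bmp4, Osr1, Ccnd2, Foxl1 and Sfrp1) were chosen after their values were seen. Boc was at 39.3 and 163.6 normalised reads (log2 fold change -2.599 ± 0.68 SE, edgeR adjusted p = 0.132), and Cdon at 0.122 and 4.78 (-5.66 ± 1.63 SE, adjusted p = 0.151). Both were lower in cluster 5 in the mean without passing the test.

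**Figure D5:**
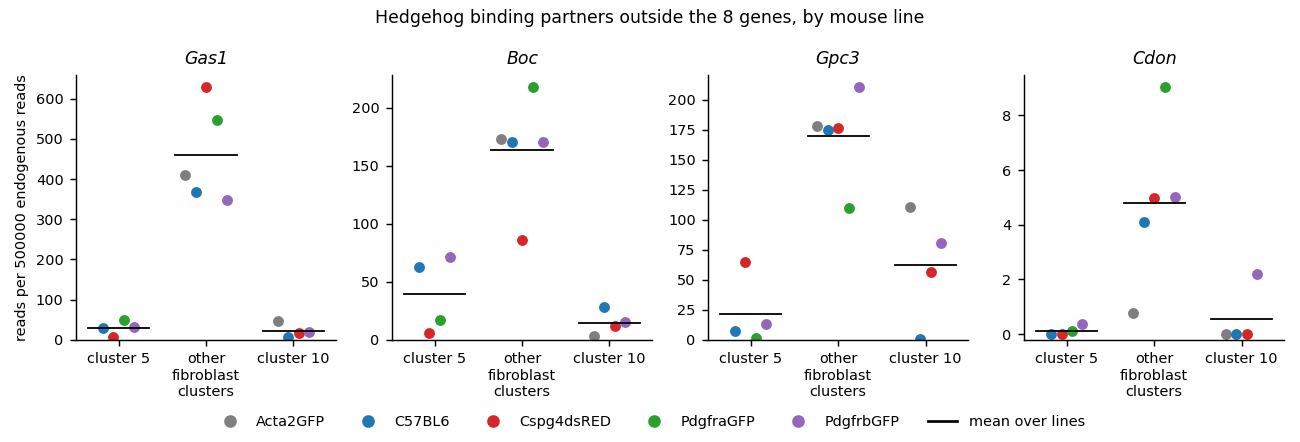
Level of Gas1, Boc, Gpc3 and Cdon (reads per 500000 endogenous reads, linear axes) in cluster 5, the other fibroblast clusters and cluster 10, with 1 point for each mouse line with at least 3 cells and the mean over lines as a bar. Every line of cluster 5 lies below every line of the other fibroblast clusters for Gas1 (at most 48.4 against at least 347), Boc, Gpc3 and Cdon, a pattern found for 8.69% of the tested genes.

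Genes downstream of Smo and of the primary cilium, the organelle in which Smo acts, were tested next. Of 18 genes for signal transduction 16 were tested and 0 called, with a median log2 fold change of -0.63, and of 10 cilium genes 10 were tested and 0 called, with a median of -0.72. With 0.879% of all tested genes called, 0 calls in lists of this size is near the background and is no result about the lists. The median over all tested genes was -0.69. Their summed levels were 592 and 520 normalised reads for transduction and 131.3 and 146.1 for the cilium in cluster 5 and in the other fibroblasts.

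Of 15 further genes known as hedgehog targets in mesenchyme, 13 were tested and 0 called, which with 0.879% of all tested genes called is no result about the list. Their median log2 fold change was -0.12, and 7 of the 13 lay above the median gene. The T-box factor Tbx2 was at 67.7 normalised reads in cluster 5 and 2.11 in the other fibroblasts (log2 fold change 5.19 ± 1.20 SE, edgeR adjusted p = 0.0910), although 1 cell of Cspg4dsRED gave that line a value of 176.8. Bmp4, a signalling factor that stroma returns to the epithelium, ran from 425 to 479 over the lines of cluster 5 and from 244.4 to 314.2 in the other fibroblasts (0.58 ± 0.25 SE, edgeR adjusted p = 0.438). Of the 13 tested targets, 3 had line values that did not overlap with cluster 5 higher, Bmp4, Tbx2 and Tbx3, as for 2.17% of the tested genes, and 3 with cluster 5 lower, Osr1, Ccnd2 and Sfrp1, as for 8.69%. Tbx3, another T-box factor, was at 59.5 or more in every line of cluster 5 and at 22.7 or less in the other fibroblasts (2.39 ± 0.73 SE, edgeR adjusted p = 0.179). The zinc finger factor Osr1 ran from 42.3 to 211.51 in cluster 5 and from 211.98 to 309.6 in the other fibroblasts (-1.37 ± 0.41 SE, edgeR adjusted p = 0.165), and Ccnd2, a cyclin of the cell cycle, from 0 to 59.1 and from 68.9 to 147.2 (-5.42 ± 1.32 SE, edgeR adjusted p = 0.108). Foxl1, a forkhead factor of sub-epithelial cells in the gut, was at 41.5 and 2.53 (3.49 ± 2.05 SE, adjusted p = 0.655). In Cspg4dsRED cells the order of Foxl1 was reversed, at 0 in cluster 5 and 6.24 in the others, while the remaining compared lines were higher in cluster 5. Sfrp1, a Wnt inhibitor, ran from 0 to 13.8 and from 50.96 to 162.2, with means of 7.36 and 89.6 (-4.09 ± 0.92 SE, adjusted p = 0.0789). Of 10 other Fox factors 8 were tested and 0 called, again against 0.879%, with a median log2 fold change of -2.09.

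The genes whose pattern was most like that of each member were found over 43 groups of 1 line and 1 cluster, among 9810 genes, as the Pearson correlation of log2(normalised reads + 1). For Hhip these were Prss35 (r = 0.725), Gata5 (r = 0.716) and Tnc (r = 0.716), and for Foxf2 Dkk2 (r = 0.769), Notum (r = 0.769) and Slc14a1 (r = 0.737). For Ptch1 they were Cops2 (r = 0.656), Dennd5a (r = 0.558) and Trpm7 (r = 0.557), and for Foxf1 Abce1 (r = 0.753), Fam160b1 (r = 0.655) and Washc5 (r = 0.612). For Gli1 they were Uchl3 (r = 0.718), Maco1 (r = 0.703) and Ncbp2 (r = 0.695), for Gli2 Znhit1 (r = 0.726), Ugt1a7c (r = 0.721) and Timp1 (r = 0.716), for Gli3 Camk2n1 (r = 0.748), P3h3 (r = 0.705) and Gxylt2 (r = 0.704), and for Smo Surf1 (r = 0.729), Frmd6 (r = 0.665) and Pitrm1 (r = 0.648). Among the members Hhip was most like Foxf2 (r = 0.524), Ptch1 (r = 0.515) and Foxf1 (r = 0.488), while Gli1 had r = 0.132 with Hhip and 0.363 with Ptch1. Groups of 1 line share mice, sort and depth, and these values are descriptions.

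For some members a gene on the opposite strand shares exon bases, and no strand setting of the counting is known. Hhip shares exon bases with Gm27820, which had 1083 reads in all cells against 24161 for Hhip, Foxf1 shares 98 bases with Gm27530 (686 reads against 27596), and Foxf2 shares 98 bases with Gm27516 (564 reads against 5785). Gli1 shares 62 bases with Arhgap9 and more than that with Gm47200, also on the opposite strand, and Gli3 overlaps Gm6556. Hhip lies at chr8:79965851-80058006, Ptch1 at chr13:63508328-63573598, Foxf1 at chr8:121084386-121088144 and Foxf2 at chr13:31625816-31631403 in build GRCm38, all protein-coding.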

How the data were processed

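Single CD31-negative cells were sorted from bladders of 5 mouse lines and made into Smart-seq2 libraries on 6 plates, read as single reads of 50 bases. The deposited table holds raw read counts per gene, which the authors made with bcl2fastq, Trim Galore, TopHat2 with Bowtie and featureCounts of Subread on build GRCm38. The annotation release and the strand setting are not given in the sources used here. Before deposit the authors had removed shallow cells, cells with few or very many genes, and cells rich in spike-in or mitochondrial reads. Cluster numbers are those of the sample labels, and 0 columns lacked a sample. The 92 ERCC spike-in rows stayed out of library sizes and tests. Gene symbols came from GENCODE M21, which matched 46005 identifiers and all 8 genes.

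Counts were summed per mouse line and class (at least 3 cells) and fitted over all genes with edgeR 4.0.16 (TMM, filterByExpr, quasi-likelihood test, line as a block) in R 4.3.3, with Benjamini-Hochberg adjusted p. The pairing comes from the labelled mouse line, which stood in for the animal, so p-values measure the spread between these samples, which may in part be technical. DESeq2 1.42.0, other scalings, no filter, no block, sums per plate and line, thinned cells, a minimum of 10 cells and each line left out were the alternatives. The fits were tested on simulated data. Levels, shares and exact Clopper-Pearson 95% intervals were computed in Python 3.11.15 with scipy 1.17.1.

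The genes and lists were chosen with earlier results of these data known. Named genes were the 8 members, the called genes of the pathway lists, and for each member the 3 genes with the highest correlation among those with a mean of at least 5 normalised reads. Others are marked where they are named.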

Additional observations from a re-analysis of the deposited data

Results flagged for a closer look

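In 24 groups of 4 or 5 lines (8 genes in cluster 5, the other fibroblast clusters and cluster 10) the lowest and the highest line were compared with the rest by Dixon's ratio of gap to range, and 3 groups held a line past the 95% critical value. Chance flags about 1 in 20 such groups. Ptch1 in cluster 5 was low in Cspg4dsRED, at 61.35 normalised reads from 3 cells, where the farthest line had 305.5 (ratio 0.957). Ptch1 in the other fibroblast clusters was high in PdgfraGFP, at 123.8 normalised reads, where the nearest line had 58.2 and the farthest 49.4 (ratio 0.881). Gli3 in cluster 10 was high in Cspg4dsRED, at 7.503 normalised reads, where the nearest line had 1.004 and the farthest 0.171 (ratio 0.886). Of the 65 Cspg4dsRED cells, 1 held 441.9 normalised reads, and the mean of the others was 0.715.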

How the results depend on the processing

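The shallowest cell had 50276 reads, and cluster 5 held 3 Cspg4dsRED cells. The cause of each change given here was not tested.

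For cluster 5 against the other fibroblast clusters, 0.879% of tested genes and 1 of the 8 were called. The percentage was 0.697 without a filter, where more genes were tested, 9.64 with DESeq2, 2.43 without the line as a block, 4.52 with sums per plate and line, 2.19 with thinned cells, 1.33 with at least 10 cells, and 1.47, 0.497, 0.244 and 0.708 against clusters 3, 6, 7 and 8 alone, which were added after seeing the data. Leaving out each line gave 0.609 (without PdgfraGFP) to 1.33 (without Cspg4dsRED). The minimum of 10 cells removed only the Cspg4dsRED line, so it is the same fit as the one without that line. Of the 8 genes, 3 were called with DESeq2, with sums per plate and line and with the median gene at 0, 2 without the block, with at least 10 cells and against cluster 2, 0 against cluster 7, and 1 to 2 with a line left out. The log2 fold change of Gli1 turned positive without the block (0.25), with sums per plate and line (0.10), with at least 10 cells (0.49) and against clusters 1, 2, 6 and 8 (0.73, 0.46, 0.33 and 1.11), and ran from -2.17 without C57BL6 to 0.49 without Cspg4dsRED. Gli3 turned to 0.69 against cluster 1.

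For cluster 10 against the fibroblast clusters, 8.34% of genes and 2 of the 8 were called. The percentage was 20.9 with DESeq2, 12.6 with sums per plate and line, 9.16 with thinned cells, 5.79 with the median gene at 0, 8.24 without cluster 5, and 3.09 (without Cspg4dsRED) to 6.29 (without C57BL6) with a line left out. Of the 8 genes, 5 were called with DESeq2, 4 with sums per plate and line, 1 with thinned cells or without cluster 5, 0 with the median gene at 0 and 0 to 1 with a line left out. Foxf2 was not tested, which left 7 genes, with sums per plate and line and with thinned cells. Foxf1 turned to 0.32 with the median gene at 0. Among the other fibroblast clusters (2.54%, 1 of the 8) it was 6.09 with DESeq2, 7.26 without the block, 6.33 with sums per plate and line and 0.324 (without PdgfrbGFP) to 1.77 (without PdgfraGFP) with a line left out. Of the 8 genes, 0 were called without a filter, with DESeq2 and with thinned cells, 2 with sums per plate and line and 0 to 1 with a line left out. For cluster 5 against cluster 10 (2.22%, 1 of the 8) it was 6.11 with DESeq2, 4.46 with sums per plate and line and 1.11 (without Cspg4dsRED) to 2.28 (without C57BL6) with a line left out. Of the 8 genes, 3 were called with DESeq2, 2 without the block, 4 with sums per plate and line, where 7 were tested (Gli3 was not), and 0 to 2 with a line left out. With a line left out, Gli1 ran from -1.98 to 4.08 and Gli3 from -2.25 to 3.57. Of all log2 fold changes under alternatives, 84.8% kept their direction and their side of the threshold, 6.35% newly passed it, 5.52% no longer did and 3.31% changed sign. The fit with at least 10 cells and the identical one without Cspg4dsRED were counted separately in these shares.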
